A study of Homo sapiens with 19 samples.

Results

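The effect of silencing MITF was compared between a melanoma line and a melanocyte line, gene by gene, as the change in 501Mel cells minus the change in Hermes 3A cells. Of the 19 RNA-seq samples of the series, 10 were used: 501Mel melanoma cells infected with shMITF (n = 2) or with the scramble control shSCR2 (n = 2), and Hermes 3A melanocytes infected with shMITF (n = 3) or with the scramble control shSCR (n = 3). Of 44717 genes listed for any of these samples, 33031 were listed for all 10, and 19284 passed a filter on low counts and were tested. The comparison asks which genes and pathways responded to MITF loss in one line and not the other, and which responded alike in both.

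501Mel is a human metastatic melanoma line, and Hermes 3A is an immortalised line of untransformed human melanocytes. Both were infected with lentiviral vectors, and the samples of both lines carry the label of a single shMITF construct, so that effects of that hairpin on other transcripts cannot be told apart from those of MITF loss. The Hermes 3A medium also held the phorbol ester TPA, cholera toxin, stem cell factor and endothelin-1, and that of 501Mel did not. Line, medium and experiment therefore cannot be told apart in the difference. The time of RNA harvest is not given in the sources used here, and although the study's methods speak of repeated infections, they do not say of these libraries whether each came from its own culture, so p-values measure only the spread between these samples.

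MITF is the basic helix-loop-helix leucine zipper factor that directs the melanocyte lineage. It binds E-box sequences, and a longer form of them, the M-box, was found in the promoters of the melanin-producing enzymes. It is also known to support survival and cell-cycle genes, and melanoma cells that lose it take on a more invasive or senescent character. Interferon-stimulated genes, which come up below, encode antiviral proteins and are switched on by STAT and IRF factors at a response element with repeated GAAA.

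Gene counts summed to between 29158502 and 78857900 in a sample. Levels are given as CPM, the counts of a gene scaled to the library's effective size and not to gene length. All 8 melanocytic markers examined were above 1 CPM in every group, with summed levels of 19420 to 21690 CPM in 501Mel with shSCR2, 10820 to 11010 with shMITF, 59340 to 60560 in Hermes 3A with shSCR and 24490 to 32090 with shMITF. Of 8 keratinocyte markers only KRT10 was above 1 CPM in any group and KRT5 and KRT1 were at 0 in all, with summed levels of 27.5 to 35.2 CPM in 501Mel, 31.2 to 33.3 CPM in Hermes 3A with shSCR and 41.5 to 62.2 CPM with shMITF. Of the endothelial markers, VWF and KDR were above 1 CPM in Hermes 3A with shSCR and KDR with shMITF, with sums of 8.89 to 13.4 CPM over both groups. The part of these cells' markers in the results was not tested. Replicates were unequally spread, with a biological coefficient of variation of 5.57% for shSCR and 32.5% for shMITF in Hermes 3A, and of 16.86% and 17.96% for shSCR2 and shMITF in 501Mel. The test used 1 estimate of spread per gene for all 4 groups and gave no group its own. The p-values of each line therefore also drew on the spread of the other line. The first principal component held 85.5% of the variance and separated the lines. The second held 7.06%, and on it all 5 shMITF samples lay opposite all 5 scramble samples.

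The targeted gene came first (MITF, chr3:69739435-69968337 in GENCODE 29 on GRCh38). In 501Mel cells MITF stood at 979 and 1105 CPM with shSCR2 and 460.0 and 519 CPM with shMITF. Hermes 3A cells held 949, 976 and 1049 CPM with shSCR and 429.7, 682 and 513 CPM with shMITF. In neither line did the groups overlap, which was also true of 60.8% of all genes tested in 501Mel and 36.9% in Hermes 3A. These shares stand beside each mention of groups that do not overlap below. MITF fell by 1.09 on the log2 scale in 501Mel (SE 0.21, adjusted p = 0.00572 in edgeR's quasi-likelihood test, Benjamini-Hochberg). In Hermes 3A the effect was -0.87 (SE 0.17, adjusted p = 0.004), past the adjusted p of 0.05 but not past an absolute log2 value of 1. The difference of the effects was -0.22 (SE 0.26, 95% interval -0.79 to 0.35, adjusted p = 0.716), so that the depletion of the transcript was alike in both lines within 1 log2 unit. This rested on shSCR2: against shSCR1, the scramble control that the series gives for another 501Mel experiment (n = 3), the effect in 501Mel was -0.15 (adjusted p = 0.51) and the difference 0.72 (adjusted p = 0.0343).

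Promoter sequences from RefSeq (GRCh38.p14) were matched for 12559 of the genes tested, as 250 bases before and 50 after the gene start, and searched on both strands for the M-box TCATGTG, the E-box CACGTG, the interferon response core (GAAA, any 2 bases and GAAA again) and the AP-1 site TGANTCA. The M-box stood in 1.84% of all promoters and in 6 of the 15 promoters of the melanin and melanosome list. The other 3 of the 6, TYR, TYRP1 and GPNMB, were called in neither line. Shown first are the 250 bases before the start of the 3 genes that were called, of which TSPAN10 was called down in both lines and the others in Hermes 3A: SLC24A5 (chr15:48120740-48120989, plus strand), TSPAN10 (chr17:81642055-81642304, plus strand) and GPR143 (chrX:9765848-9766097, minus strand). Capitals mark the M-box, which reads CACATGA here because each match is on the strand opposite to the one printed.
SLC24A5: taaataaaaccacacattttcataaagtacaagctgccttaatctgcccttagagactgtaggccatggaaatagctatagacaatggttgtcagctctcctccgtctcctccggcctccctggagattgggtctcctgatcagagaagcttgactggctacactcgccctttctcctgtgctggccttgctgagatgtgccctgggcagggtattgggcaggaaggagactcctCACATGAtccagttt
TSPAN10: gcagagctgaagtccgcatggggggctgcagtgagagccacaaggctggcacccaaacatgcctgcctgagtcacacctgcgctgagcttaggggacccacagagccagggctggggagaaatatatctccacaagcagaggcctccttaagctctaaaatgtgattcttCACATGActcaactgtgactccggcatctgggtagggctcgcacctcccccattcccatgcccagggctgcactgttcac
GPR143: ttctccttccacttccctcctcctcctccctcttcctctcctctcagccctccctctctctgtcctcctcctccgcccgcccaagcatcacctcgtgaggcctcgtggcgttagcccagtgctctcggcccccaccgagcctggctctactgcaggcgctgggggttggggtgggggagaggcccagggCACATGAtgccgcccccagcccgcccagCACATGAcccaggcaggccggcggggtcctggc
The M-box began 15 bases before the gene start in SLC24A5, 80 bases before it in TSPAN10, and 61 and 33 bases before it in GPR143.

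The interferon response core stood in 2.76% of all promoters and in 16 of the 28 promoters (57.1%) of interferon-stimulated genes. The next 3 sequences are of such genes, with the core in capitals on either strand: IFIT1 (chr10:89392373-89392622), ISG15 (chr1:1013247-1013496) and OAS3 (chr12:112938224-112938473), all on the plus strand.
IFIT1: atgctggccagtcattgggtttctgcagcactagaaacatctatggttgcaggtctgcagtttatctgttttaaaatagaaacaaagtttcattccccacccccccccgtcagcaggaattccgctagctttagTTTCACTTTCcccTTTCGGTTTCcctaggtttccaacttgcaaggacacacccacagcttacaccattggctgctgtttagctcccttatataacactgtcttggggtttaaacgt
ISG15: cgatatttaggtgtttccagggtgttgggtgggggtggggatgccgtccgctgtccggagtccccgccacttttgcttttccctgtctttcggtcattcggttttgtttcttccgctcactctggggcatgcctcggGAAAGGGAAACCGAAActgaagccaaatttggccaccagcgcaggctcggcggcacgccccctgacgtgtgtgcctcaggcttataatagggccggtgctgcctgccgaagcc
OAS3: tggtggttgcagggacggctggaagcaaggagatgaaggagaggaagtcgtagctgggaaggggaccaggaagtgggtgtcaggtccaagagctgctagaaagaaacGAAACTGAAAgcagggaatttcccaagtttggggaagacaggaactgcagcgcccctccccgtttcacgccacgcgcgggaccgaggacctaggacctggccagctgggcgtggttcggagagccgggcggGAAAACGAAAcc
The matches began 116 and 103 bases before the start of IFIT1, 113 and 107 before that of ISG15, where they overlap, and 143 and 12 before that of OAS3. A match is a run of letters and not a bound site. The E-box stood in 9.67% of all promoters and in 10 of 22 promoters (45.5%) of the lysosomal list. The AP-1 site stood in 4.96% of all promoters, in 9.85% of 132 promoters of genes called down in both lines and in 8.79% of 91 of those called up in both, and in the 132 the M-box stood in 5.3% and the E-box in 9.09%.

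The difference of effects was called for 509 genes, 2.64% of those tested, by edgeR's quasi-likelihood test at an adjusted p under 0.05 and an absolute log2 value over 1. In 385 genes (2.00%) the effect was higher in 501Mel, with a median difference of 1.71, and in 124 (0.643%) it was lower, with a median of -1.52. Among the 385, 171 rose in 501Mel and were not called in Hermes 3A, and 123 fell in Hermes 3A and were not called in 501Mel. A further 77 were called in neither line by itself, 9 rose in 501Mel and fell in Hermes 3A, 3 rose in both and 2 fell in both. Of the 124, 40 fell only in 501Mel, 39 rose only in Hermes 3A, 5 fell in 501Mel and rose in Hermes 3A, and 40 were called in neither. Protein-coding genes made up 356 of the 385 and 117 of the 124. Some were hardly expressed in one of the lines. Of the 385, 25 were under 1 CPM in both groups of Hermes 3A and 35 in both groups of 501Mel. For the 124 these counts were 11 and 10.

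By the contrast of each line in the same fit, 501Mel had 724 genes that rose (3.75%) and 517 that fell (2.68%), 6.44% of the genes tested. Hermes 3A had 646 that rose (3.35%) and 803 that fell (4.16%), or 7.51%. Which line had more calls depended on this shared fit. With each line in its own fit, 1565 genes were called in 501Mel (971 up, 594 down) and 1217 in Hermes 3A (550 up, 667 down). Most genes called in one line were not shown to differ between the lines. Of 582 genes called up in 501Mel only, the difference was called for 171, and 413 had an effect of the same sign in Hermes 3A. Of 607 genes called down in Hermes 3A only, it was called for 123, and 416 had the same sign in 501Mel. The same held for the 325 genes down in 501Mel only (40 called, 268 of the same sign) and the 508 up in Hermes 3A only (39 called, 390 of the same sign). Across all genes tested, which are not independent replicates, Pearson's r between the effects was 0.31 and Spearman's rho 0.33. Over the 10610 genes with at least 100 counts on average in every group, r was 0.46 and rho 0.45.

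**Figure D1:**
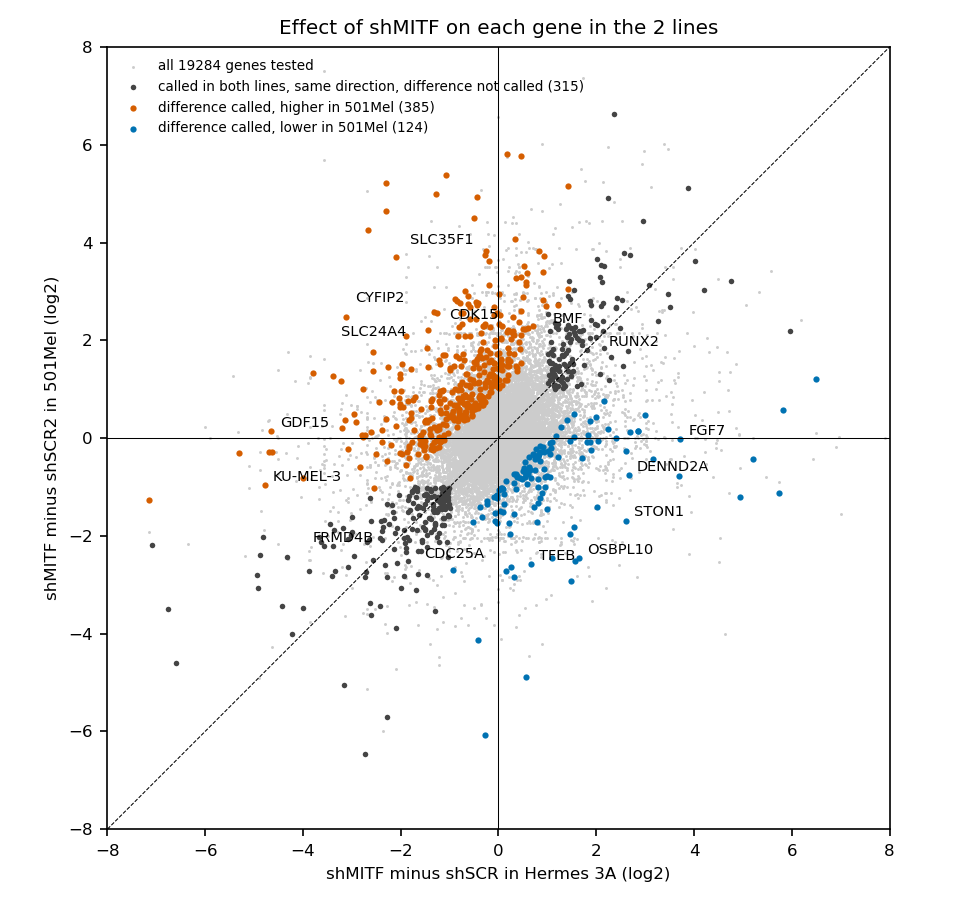
Each point is a gene, with the log2 effect of shMITF in Hermes 3A (horizontal) against that in 501Mel (vertical), and the dashed line marks equal effects. Genes with a called difference, 385 higher in 501Mel (orange) and 124 lower (blue), lie off that line by the way they were selected. Genes called in both lines in the same direction without a called difference (dark grey) have effects of equal sign. Of these, 99 that rose and 123 that fell were not shown to be alike.

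Genes called in the same direction in both lines numbered 320. Of these, 133 rose (0.690% of genes tested), which is 18.4% of those up in 501Mel and 20.6% of those up in Hermes 3A. The other 187 fell (0.970%), which is 36.2% of those down in 501Mel and 23.3% of those down in Hermes 3A. Effects were counted as alike where the 95% interval of the difference lay within -1 to 1, which held for 6767 genes, 35.1% of those tested. Among the 10610 genes with at least 100 counts on average in every group the share was 62.4%, so that likeness depended on the level of a gene. Of the genes called in both lines, 31 of the 133 and 62 of the 187 were alike in this sense. With shSCR1 as the 501Mel control 79 of the 133 and 122 of the 187 were still called in both lines, and without 501_shMITF replicate 2 they were 50 and 72.

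Named first are the up-regulated genes that were alike. BMF, a BH3-only protein that promotes apoptosis, stood at 7.66 and 10.3 CPM with shSCR2 and 47.2 and 34.9 CPM with shMITF in 501Mel and at 15.6, 16.1 and 15 CPM with shSCR and 62.1, 65.2 and 77.9 CPM with shMITF in Hermes 3A. Its effects were 2.19 and 2.13, and the difference was 0.05 (SE 0.25, 95% interval -0.49 to 0.6). DYNLRB1, a light chain of the dynein motor, stood at 29 and 23.3 CPM with shSCR2 and 96.6 and 91.3 CPM with shMITF in 501Mel and at 32.5, 34.4 and 30.1 CPM with shSCR and 178, 121 and 133 CPM with shMITF in Hermes 3A. It rose by 1.85 and 2.16. The groups of neither gene overlapped in either line, beside shares of 60.8% of all genes in 501Mel and 36.9% in Hermes 3A. RUNX2, a transcription factor of bone formation, rose by 2.06 and 2.0, ALCAM, a cell adhesion molecule also known as CD166, by 1.62 and 1.49, and MAMLD1 by 1.48 and 1.38. The size of these effects in 501Mel depended on the control. Against shSCR1, BMF had an effect of -0.39 and RUNX2 of -0.55 in 501Mel, with differences of -2.53 and -2.56, whereas ALCAM, MAMLD1 and DYNLRB1 had larger effects, with differences of 1.08, 1.66 and 0.78.

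CDC25A, the phosphatase that releases cyclin-dependent kinases at the entry to S phase, was among the down-regulated genes that were alike. It stood at 75.2 and 90.6 CPM with shSCR2 and 22 and 18.6 CPM with shMITF in 501Mel and at 34, 33.4 and 33.1 CPM with shSCR and 7.59, 12.5 and 7.33 CPM with shMITF in Hermes 3A, and fell by 2.03 and 1.87. FRMD4B, a scaffold protein with a FERM domain, stood at 37 and 36.2 CPM with shSCR2 and 9.84 and 10 CPM with shMITF in 501Mel and at 70.7, 65.6 and 69.1 CPM with shSCR and 13.3, 19 and 21.8 CPM with shMITF in Hermes 3A. Its effects of -1.88 and -1.93 differed by 0.05 (95% interval -0.51 to 0.6). ANKRD46, with effects of -1.95 and -2.12, LRRC8B, a subunit of volume-regulated anion channels, with -1.63 and -1.76, and MDGA1, a cell surface protein, with -1.58 and -1.62, completed the set. FRMD4B and ANKRD46 kept differences of 0.23 and -0.07 against shSCR1, and for CDC25A, LRRC8B and MDGA1 these were 0.89, 0.75 and -0.92.

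**Figure D2:**
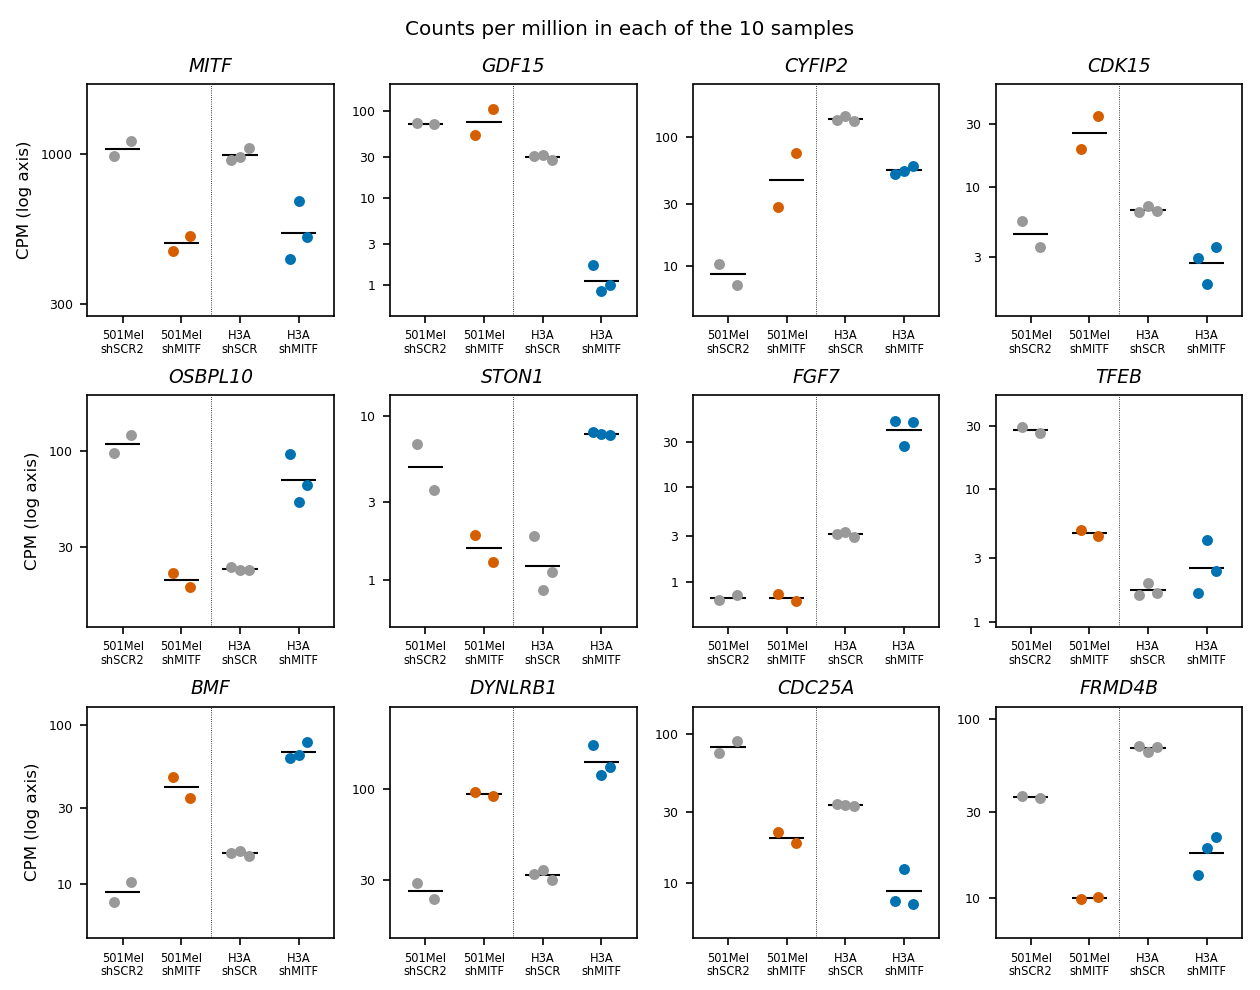
CPM (log axis) of 12 genes in each of the 10 samples, with a point for each sample and a bar at the geometric mean of the group. GDF15, CYFIP2, CDK15, OSBPL10, STON1, FGF7 and TFEB part between the lines, while MITF, BMF, DYNLRB1, CDC25A and FRMD4B move the same way in both.

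Among genes with at least 10 counts on average in each group and 100 in the highest, those with the largest positive differences differed in which line moved. GDF15, a stress-induced cytokine of the TGF-beta superfamily (chr19:18374731-18389176), stood at 30.6, 31.7 and 27.3 CPM with shSCR and 1.69, 0.843 and 1 CPM with shMITF in Hermes 3A. In 501Mel it stood at 73.2 and 71.2 CPM with shSCR2 and 53.1 and 107 CPM with shMITF, where the shMITF samples lay on either side of the controls. The effects were -4.64 in Hermes 3A and 0.15 in 501Mel, a difference of 4.79 (SE 0.42, adjusted p = 0.000349). Against shSCR1 GDF15 fell in 501Mel too (-2.12, adjusted p = 3.6e-05), with a difference of 2.52. KU-MEL-3, a long intergenic non-coding RNA (chr6:4610612-4611919), stood at 11.3, 11.5 and 11 CPM with shSCR and 0.643, 0.331 and 0.207 CPM with shMITF in Hermes 3A and at 25.5 and 39.9 CPM with shSCR2 and 17 and 16.8 CPM with shMITF in 501Mel. Its effects were -4.79 and -0.96, a difference of 3.83 (adjusted p = 0.000962). UNC5CL, an adaptor related to netrin receptors, followed this pattern at low levels (effects 1.0 in 501Mel and -2.78 in Hermes 3A). SLC35F1, a member of a family of nucleotide sugar transporters (chr6:117907526-118317676), rose in 501Mel instead, from 3.02 and 3 CPM with shSCR2 to 26.2 and 54.6 with shMITF. All 6 Hermes 3A samples stayed below 1 CPM, and the difference was 4.02 (SE 0.52, adjusted p = 0.00196). CTNNA2, the neural alpha-catenin, likewise rose in 501Mel, from 1.65 and 1.09 to 14.6 and 18.6 CPM, with a difference of 3.81 (adjusted p = 0.00866) that was not called without 501_shSCR2 replicate 2 (at least 3.5 over all left-out samples). With pooled controls the differences of GDF15 and CTNNA2 were 3.08 and 2.69 and not called (adjusted p = 0.121 and 0.12).

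Opposite calls in the lines were made for 14 genes, 0.0726% of those tested, all with a called difference. CYFIP2, a subunit of the WAVE complex that directs branched actin (chr5:157266079-157395595), stood at 10.3 and 7.13 CPM with shSCR2 and 28.5 and 74.7 CPM with shMITF in 501Mel. In Hermes 3A it started higher and fell, at 136, 146 and 133 CPM with shSCR and 51.6, 54.7 and 59.5 CPM with shMITF, so that the shMITF samples of the lines came to lie near each other. Its effects were 2.57 and -1.32, with a difference of 3.89 (SE 0.45, adjusted p = 0.00155). CDK15, a little-studied cyclin-dependent kinase (chr2:201790461-201895550), stood at 5.59 and 3.59 CPM with shSCR2 and 19.5 and 34 CPM with shMITF in 501Mel and at 6.51, 7.23 and 6.63 CPM with shSCR and 2.98, 1.9 and 3.6 CPM with shMITF in Hermes 3A, with effects of 2.55 and -1.27 and a difference of 3.82 (adjusted p = 0.00114). SLC24A4, a potassium-dependent sodium-calcium exchanger tied to pigmentation variation, stood at 10.9 and 12.3 CPM with shSCR2 and 52 and 56 CPM with shMITF in 501Mel and at 53.6, 58.2 and 55.2 CPM with shSCR and 7.83, 30.5 and 23.3 CPM with shMITF in Hermes 3A (difference 3.66, adjusted p = 0.00931). RAB3C, a Rab of regulated secretion, and RASGRF1, an exchange factor for Ras, had effects of 1.41 and 1.51 in 501Mel and of -1.79 and -1.97 in Hermes 3A. Of these 5, RASGRF1 lost its call against shSCR1 (difference 0.36), where its effect in 501Mel was -1.61. With pooled controls RASGRF1 (difference 0.98, adjusted p = 0.779) and CYFIP2 (difference 2.67, adjusted p = 0.0825) were not called by edgeR's quasi-likelihood test. The call of SLC24A4 was lost without either 501_shSCR2 replicate, with a difference of at least 3.26 throughout.

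Among the genes named by size (at least 10 counts on average in each group and 100 in the highest), STON1 and OSBPL10 had the largest negative differences. TGFB2, named below from a gene list, had a larger one (-5.45). OSBPL10, an oxysterol-binding protein of lipid transport (chr3:31657890-32077580), stood at 97.7 and 122 CPM with shSCR2 and 21.8 and 18.3 CPM with shMITF in 501Mel and at 23.6, 22.7 and 22.7 CPM with shSCR and 96.9, 52.8 and 66 CPM with shMITF in Hermes 3A. The silenced 501Mel samples thus came down to about the level of the Hermes 3A controls, while the silenced Hermes 3A samples rose, with effects of -2.46 and 1.64 and a difference of -4.1 (SE 0.32, adjusted p = 0.000238). STON1, an endocytic adaptor (chr2:48529383-48598513), stood at 6.78 and 3.53 CPM with shSCR2 and 1.89 and 1.29 CPM with shMITF in 501Mel and at 1.86, 0.862 and 1.11 CPM with shSCR and 7.99, 7.74 and 7.71 CPM with shMITF in Hermes 3A, with a difference of -4.29 (SE 0.53, adjusted p = 0.00169). It shares its locus with a readthrough gene, so that its reads may be divided. DYNLT2B, a dynein light chain with a readthrough partner of its own, was called in opposite directions too (effects -1.97 and 1.47).

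FGF7, the keratinocyte growth factor (chr15:49423096-49488775), rose in Hermes 3A only. It stood at 3.2, 3.31 and 2.98 CPM with shSCR and 49.1, 26.9 and 48.6 CPM with shMITF there and at 0.641 and 0.724 CPM with shSCR2 and 0.74 and 0.625 CPM with shMITF in 501Mel, with effects of 3.71 and -0.02 and a difference of -3.73 (SE 0.41, adjusted p = 0.000962). DENND2A, an exchange factor for Rab GTPases, rose in Hermes 3A from 1.82, 1.7 and 1.97 CPM to 8.39, 8.04 and 18.4 CPM and had an effect of -0.76 in 501Mel. GRIK2, a kainate receptor subunit, and COL12A1, a fibril-associated collagen, had differences of -3.57 and -3.55, which became -1.0 and -0.7, neither called, against shSCR1. COL12A1 also lost its call without either 501_shSCR2 replicate or any one shSCR replicate, and over all left-out samples its difference ran from -6.06 to -2.65. The calls of GDF15, SLC35F1, KU-MEL-3, CYFIP2, CDK15, STON1, OSBPL10, FGF7, GRIK2, DYNLT2B, DENND2A, TFEB, RASGRF1 and RAB3C were each kept with any 1 of the 10 samples left out. Those of C4orf54, an uncharacterised gene (difference 3.98), and UNC5CL were lost without any one shSCR replicate, either shSCR2 replicate or 501_shMITF replicate 2, and the call of C4orf54 also without H3A_shMITF replicate 3, with differences of at least 3.11 and 2.97.

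**Figure D3:**
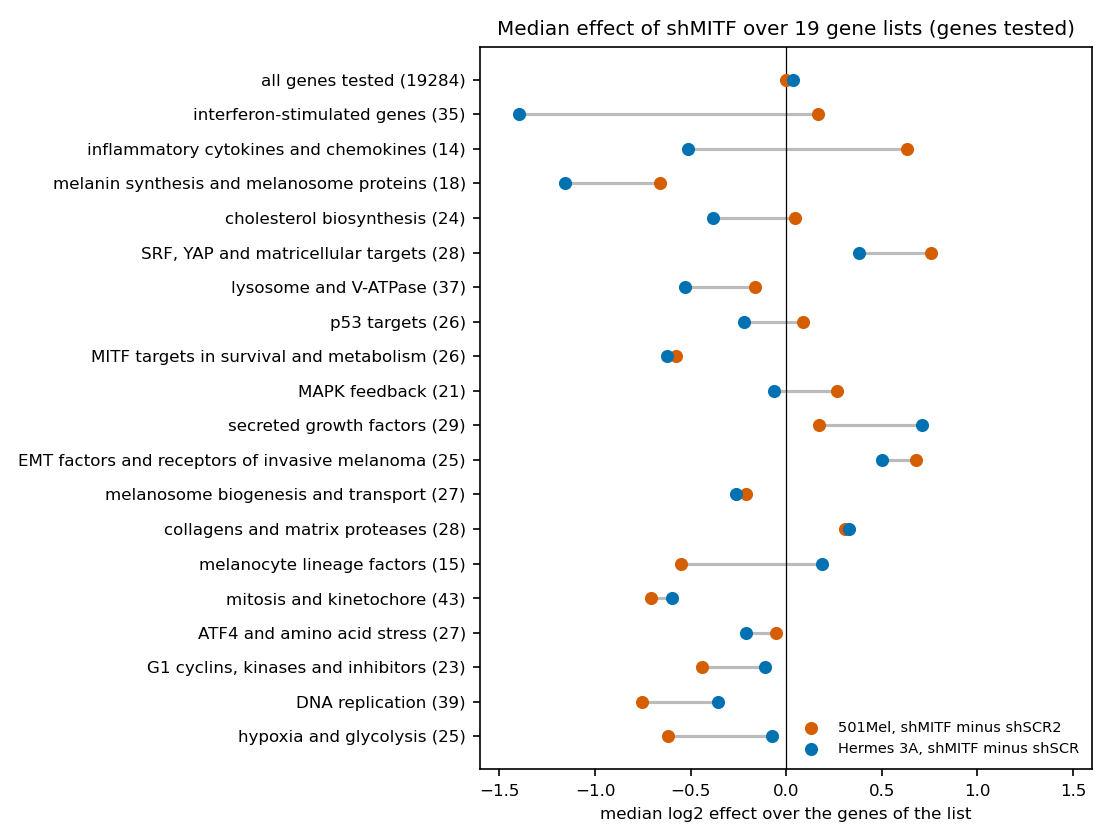
Median log2 effect of shMITF over each of 19 gene lists, with the number of genes tested in parentheses, in 501Mel (orange) and Hermes 3A (blue). The interferon-stimulated genes are farthest apart (0.17 and -1.4), and the mitosis list (-0.71 and -0.60) and the list of MITF targets in survival and metabolism (-0.57 and -0.63) lie close together.

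Among 15 melanocyte lineage factors tested, 1 had a higher effect in 501Mel by a called difference and 2 a lower one. The shares of all genes with such differences were 2.00% and 0.643%, and they stand beside the counts of every list below. For called effects the shares of all genes were 3.75% up and 2.68% down in 501Mel and 3.35% up and 4.16% down in Hermes 3A. TFEB, the lysosomal regulator of the same family as MITF (chr6:41683978-41736259), stood at 29.2 and 26.6 CPM with shSCR2 and 4.91 and 4.39 CPM with shMITF in 501Mel. Hermes 3A cells held 1.58, 1.95 and 1.65 CPM with shSCR and 1.64, 4.09 and 2.42 CPM with shMITF, levels that overlap and lie below those of the silenced 501Mel cells. It fell by 2.58 in 501Mel, and the difference was -3.24 (SE 0.45, adjusted p = 0.00301). SOX6, a partner and modulator of SOX10, stood at 187 and 242 CPM with shSCR2 and 110.4 and 72.4 CPM with shMITF in 501Mel and at 24.2, 23 and 24.7 CPM with shSCR and 32, 60.2 and 38.1 CPM with shMITF in Hermes 3A, with a difference of -2.09 (adjusted p = 0.00846), lost without 501_shMITF replicate 2 (-1.78). LEF1, a transcription factor of the Wnt pathway that activates the MITF promoter, rose in 501Mel, where it stood at 67 and 62.6 CPM with shSCR2 and 128 and 189 CPM with shMITF. Hermes 3A cells held 65.2, 59.7 and 61 CPM with shSCR and 54.4, 41.2 and 46.2 CPM with shMITF, and the difference was 1.68 (adjusted p = 0.00358). SOX10, the neural crest factor upstream of MITF, had effects of -0.55 and 0.26 and a difference of -0.81 (95% interval -1.89 to 0.26, adjusted p = 0.422). All 3 called differences were also called against shSCR1 and against pooled controls.

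Several melanin and melanosome genes fell in both lines, and more of them were called in Hermes 3A. Of 18 genes tested, 11 fell and none rose in Hermes 3A, with a median of -1.16, and 5 fell and 1 rose in 501Mel, with a median of -0.66, against 0.0 in 501Mel and 0.04 in Hermes 3A over all genes. DCT, the dopachrome tautomerase of melanin synthesis, stood at 1407 and 1028 CPM with shSCR2 and 160.0 and 178 CPM with shMITF in 501Mel and at 20.6, 19.3 and 22 CPM with shSCR and 4.34, 3.61 and 1.31 CPM with shMITF in Hermes 3A. It fell by 2.85 and 2.72, with a difference of -0.13 (95% interval -1.1 to 0.85). MLANA, the melanosomal antigen MART-1, fell by 1.02 and 1.17 and was alike. TSPAN10, a tetraspanin, and CAPN3, a calpain, also fell in both lines, by 1.07 and 1.63 in 501Mel and by 1.78 and 1.14 in Hermes 3A. PMEL, the fibril protein of the melanosome, had effects of -0.94 and -1.63, of which the second was called. TYR, the tyrosinase at the first step, and TYRP1 were called in neither line, with effects of 0.44 and -0.88 in 501Mel and of -0.2 and -0.79 in Hermes 3A.

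The 3 called differences in this list were all of ion or solute carriers tied to pigmentation. SLC45A2, a transporter of the melanosome membrane, stood at 754 and 1074 CPM with shSCR2 and 1063 and 1284 CPM with shMITF in 501Mel. In Hermes 3A it was far lower at the start and fell further, at 11.7, 10.3 and 10.7 CPM with shSCR and 1.37, 1.57 and 0.692 CPM with shMITF, with an effect of -3.15 against 0.36 in 501Mel and a difference of 3.51 (SE 0.35, adjusted p = 0.000835). SLC24A5, the exchanger whose promoter is printed first above, stood at 224 and 222 CPM with shSCR2 and 184 and 211 CPM with shMITF in 501Mel. The groups did not overlap there, like those of 60.8% of all genes, although the effect was only -0.18. In Hermes 3A it stood at 521, 523 and 534 CPM with shSCR and 228, 209 and 246 CPM with shMITF and fell by 1.21 (difference 1.03, adjusted p = 0.012). That call was lost without 501_shMITF replicate 2, either 501_shSCR2 replicate, H3A_shMITF replicate 2 or H3A_shSCR replicate 2, with a difference of at least 0.93. The third was SLC24A4, described above. GPR143, an intracellular receptor of the melanosome, fell by 1.06 in Hermes 3A and had an effect of -0.24 in 501Mel, with a difference of 0.82 that was not called (adjusted p = 0.202). All 3 carriers kept their calls against shSCR1, while the median difference of the list went from 0.55 to 0.11.

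**Figure D4:**
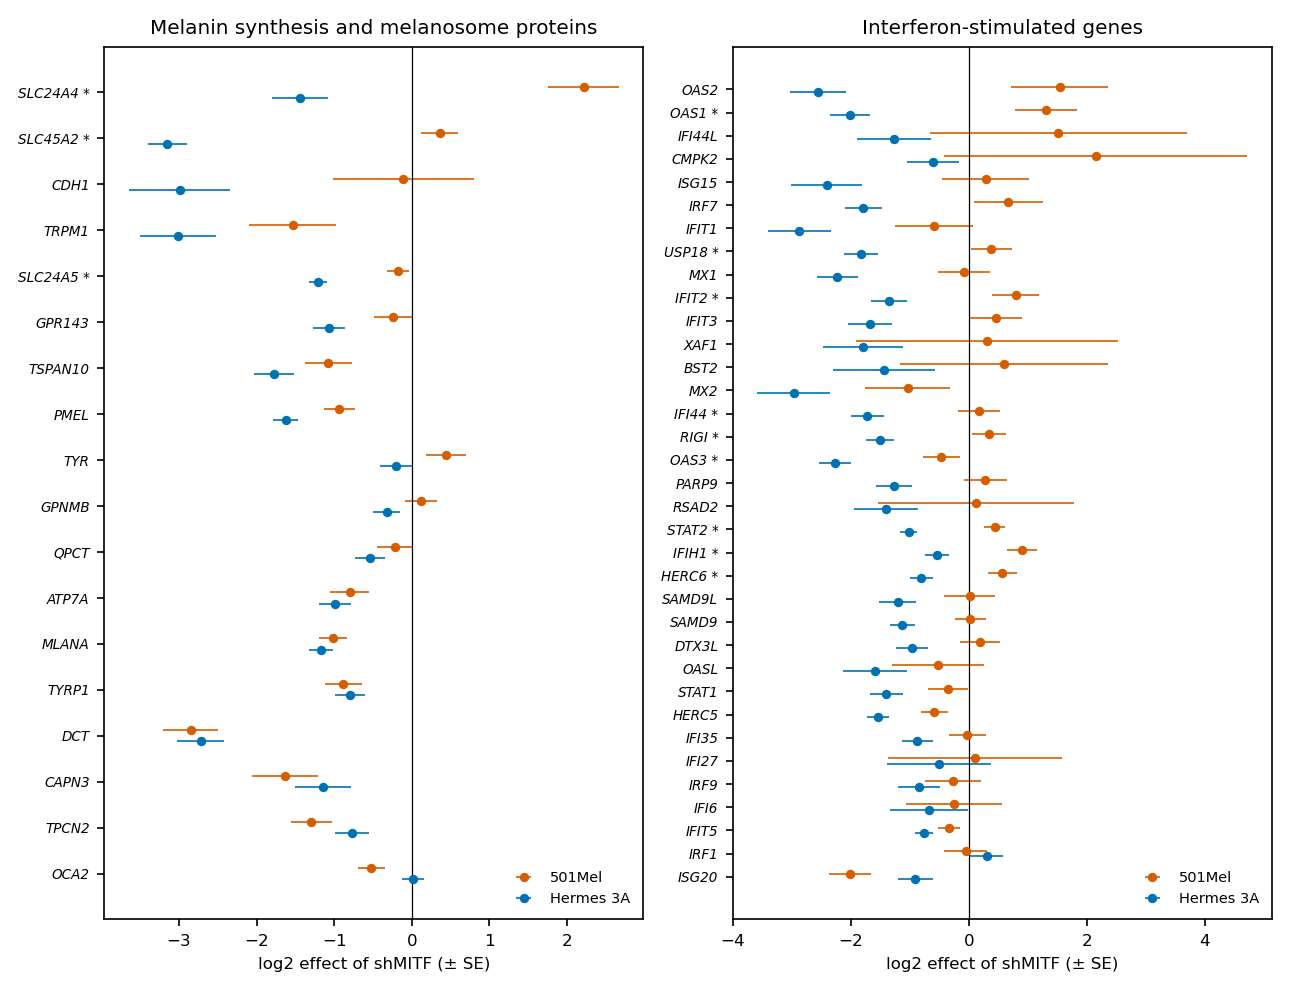
Log2 effect of shMITF with its SE for each gene tested of the melanin and melanosome list (left) and of the interferon-stimulated genes (right), in 501Mel (orange) and Hermes 3A (blue), with genes in order of the difference and an asterisk where it was called. On the left both colours lie mostly below 0, and on the right the Hermes 3A points lie below 0 for 34 of 35 genes and the 501Mel points scatter around 0.

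Genes of melanosome biogenesis and transport moved less (medians -0.21 in 501Mel and -0.26 in Hermes 3A). Of the 27 genes 19 were alike, beside 62.4% of all genes with at least 100 counts on average in every group. RAB27A, the GTPase that tethers melanosomes to actin, fell by 1.34 and 1.34, with a difference of 0.0 (95% interval -0.78 to 0.79). RAB38, which sorts enzymes to the melanosome, parted between the lines. It stood at 317 and 408 CPM with shSCR2 and 419 and 512 CPM with shMITF in 501Mel, at 529, 538 and 548 CPM with shSCR and 179, 245 and 152 CPM with shMITF in Hermes 3A, and the difference was 1.85 (SE 0.28, adjusted p = 0.0048), kept with each control and with any 1 sample left out. BLOC1S1, a subunit of the BLOC-1 complex with a readthrough partner, had a difference of -1.61 (adjusted p = 0.0345), which was lost against shSCR1 (-0.94) and without any one sample other than H3A_shMITF replicate 1 or 2 (-1.85 to -1.43).

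Known MITF targets in survival and metabolism had similar medians in the lines (-0.57 in 501Mel and -0.63 in Hermes 3A). Of 26 tested, 5 fell and none rose in 501Mel, and 9 fell and 1 rose in Hermes 3A. BCL2A1, an anti-apoptotic BCL2 relative and lineage survival gene, stood at 11.5 and 24 CPM with shSCR2 and 5.96 and 8.88 CPM with shMITF in 501Mel and at 113, 115 and 122 CPM with shSCR and 24.4, 30.6 and 41.7 CPM with shMITF in Hermes 3A, with effects of -1.27 and -1.86. MET, the receptor of hepatocyte growth factor, fell by 1.32 and 1.74 and was alike. BIRC7, an inhibitor of apoptosis, and CEACAM1, an adhesion molecule, also fell in both, by 1.62 and 1.35 in 501Mel and by 3.0 and 2.28 in Hermes 3A, while CDK2 fell in Hermes 3A by 1.34 and had -1.04 in 501Mel (adjusted p = 0.0595). The called difference was of PPARGC1A, the coactivator of mitochondrial biogenesis. It stood at 215 and 244 CPM with shSCR2 and 74.6 and 63.3 CPM with shMITF in 501Mel and at 2.48, 3.09 and 2.76 CPM with shSCR and 3.67, 4.21 and 1.73 CPM with shMITF in Hermes 3A, where it was hardly expressed and the groups overlapped. It fell by 1.73 in 501Mel, a difference of -1.96 (SE 0.36, adjusted p = 0.0129), which was lost with pooled controls (-1.58) and without 501_shMITF replicate 2 or 501_shSCR2 replicate 2 (-2.24 to -1.73 over the samples left out).

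Mitotic and kinetochore genes had negative medians of similar size in both lines. Of 43 tested, 9 fell in 501Mel and 4 in Hermes 3A, none rose, and the medians were -0.71 and -0.60. CENPF, a kinetochore protein, stood at 472 and 434 CPM with shSCR2 and 226 and 203 CPM with shMITF in 501Mel and at 206, 188 and 216 CPM with shSCR and 90.7, 103 and 105 CPM with shMITF in Hermes 3A, and fell by 1.08 and 1.03. AURKB, the kinase of the chromosomal passenger complex, fell by 1.01 and 1.46. CDK1, the mitotic kinase, fell by 1.4 in 501Mel and had -0.86 in Hermes 3A, with a difference of -0.53 (adjusted p = 0.249). No difference was called for this list by edgeR's quasi-likelihood test, by DESeq2 or by limma-voom with sample weights, and 4 genes had an unadjusted p under 0.05. Of the 43 genes 35 were alike, beside 62.4% of all genes with at least 100 counts on average in every group. In bulk RNA, fewer dividing cells and less of a transcript per cell cannot be told apart.

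The 39 DNA replication genes had medians of -0.75 in 501Mel and -0.36 in Hermes 3A, with 37 differences below 0. Of these genes 6 fell in 501Mel, and 1 fell and 1 rose in Hermes 3A. The shares of all genes were 2.68% down in 501Mel, and 4.16% down and 3.35% up in Hermes 3A. MCM6, a subunit of the replicative helicase, stood at 209 and 209.8 CPM with shSCR2 and 75.8 and 66.5 CPM with shMITF in 501Mel and at 75.9, 69.2 and 74.8 CPM with shSCR and 38.7, 59.8 and 39.6 CPM with shMITF in Hermes 3A, with effects of -1.56 and -0.67 and a difference of -0.89 (95% interval -1.43 to -0.34, adjusted p = 0.083). RRM2, the small subunit of ribonucleotide reductase, fell by 1.08 and 1.06 and was alike. GINS3, of the GINS complex, rose in Hermes 3A by 1.08 and had the 1 called difference (-1.29, adjusted p = 0.0349), which was lost without any one sample other than a H3A_shMITF replicate (-1.38 to -1.11). The negative medians of both division lists in 501Mel rested on shSCR2. Against shSCR1 the 501Mel medians were 0.19 for DNA replication and 0.15 for mitosis, with 7 and 8 called differences, all positive.

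G1 regulators split. CCND1, the D-type cyclin that starts the cycle, stood at 598 and 506 CPM with shSCR2 and 213 and 267 CPM with shMITF in 501Mel and at 4210, 4142 and 4033 CPM with shSCR and 1839, 1142 and 1773 CPM with shMITF in Hermes 3A, fell by 1.2 and 1.38, and was alike. CDK6, its partner kinase, stood at 41.2 and 40.2 CPM with shSCR2 and 126 and 101 CPM with shMITF in 501Mel and at 21.9, 22.2 and 23.9 CPM with shSCR and 15.2, 11.7 and 9.23 CPM with shMITF in Hermes 3A. It rose by 1.48 in 501Mel and had -0.91 in Hermes 3A, a difference of 2.39 (SE 0.27, adjusted p = 0.000962). CDKN2B, the p15 inhibitor of that kinase, also rose in 501Mel, from 9.59 and 6.6 to 34 and 69.8 CPM, and overlapped in Hermes 3A, with a difference of 2.79 (adjusted p = 0.00345). Both calls were kept with any 1 sample left out. With pooled controls neither CDK6 (3.23, adjusted p = 0.0558) nor CDKN2B (1.43, adjusted p = 0.411) was called. Against shSCR1 the difference of CDK6 was 4.32 and that of CDKN2B 0.94, of which the second was not called. CDKN1B, the p27 inhibitor, rose in Hermes 3A by 1.04 and had 0.31 in 501Mel, without a called difference.

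Of 26 p53 targets, GDF15, SESN2 and GADD45A had called differences, all positive. SESN2, a stress-induced regulator of TOR signalling, had effects of 0.71 in 501Mel and -0.64 in Hermes 3A, and GADD45A, a DNA damage-inducible protein, of 0.84 and -0.71. None of these 4 effects passed both thresholds, and the differences were 1.35 and 1.55 (adjusted p = 0.0369 and 0.0209). Both were lost without any one shSCR replicate, either shSCR2 replicate or 501_shMITF replicate 2, and SESN2 also without H3A_shMITF replicate 3 (as low as 0.91 for SESN2 and 1.27 for GADD45A). SESN2 was not called with pooled controls (0.65, adjusted p = 0.601) or against shSCR1 (0.33, adjusted p = 0.405) either. TIGAR, a phosphatase that limits glycolysis, fell in both lines, by 1.43 and 1.0. CDKN1A, the p21 inhibitor, stood at 876, 919 and 826 CPM with shSCR and 1098, 548 and 782 CPM with shMITF in Hermes 3A, with overlapping groups, and at 0 and 0.0254 CPM with shSCR2 and 0.0411 and 0 CPM with shMITF in 501Mel.

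Of the 19 lists, the interferon-stimulated genes had the largest median difference between the lines with shSCR2 as the 501Mel control. With pooled controls the collagen list stood as far from 0 (-0.96, against 0.96 for the interferon list). Of 35 genes tested, 19 fell and none rose in Hermes 3A, with a median of -1.4, whereas 1 fell and none rose in 501Mel, with a median of 0.17. The difference was positive for 33 of 35, with a median of 1.55 against -0.04 over all genes, and was called for 9 of them, beside 2.00% of all genes. The baseline differed as well, since the median log2 CPM of the list was 2.37 and 2.47 in the shSCR2 samples and 5.88, 5.88 and 5.86 in the shSCR samples. ISG15, the ubiquitin-like modifier whose promoter is printed above, stood at 274, 271 and 256 CPM with shSCR and 40.9, 12.1 and 97.7 CPM with shMITF in Hermes 3A. In 501Mel it stood at 6.78 and 6.88 CPM with shSCR2 and 8.49 and 8.22 CPM with shMITF. The shMITF replicates in Hermes 3A were below all controls but differed several-fold from one another, replicate 2 being lowest and replicate 3 highest. ISG15 fell by 2.41 in Hermes 3A, and its difference of 2.7 was not called (SE 0.95, adjusted p = 0.192).

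The same order of replicates held for IFIT1, an inhibitor of viral translation, which stood at 193, 179 and 220.1 CPM with shSCR and 17.8, 9.81 and 53.4 CPM with shMITF in Hermes 3A and at 6.08 and 4.59 CPM with shSCR2 and 3.84 and 3.2 CPM with shMITF in 501Mel. OAS1, a synthase of 2-5A, which activates RNase L, stood at 122, 123 and 131 CPM with shSCR and 25.3, 18.1 and 50.2 CPM with shMITF in Hermes 3A and at 0.977 and 0.584 CPM with shSCR2 and 1.27 and 2.35 CPM with shMITF in 501Mel. Its effects were -2.01 and 1.3, a difference of 3.31 (SE 0.62, adjusted p = 0.0199). STAT2, a subunit of the factor that transmits the interferon signal, was less spread. It stood at 528, 514 and 527 CPM with shSCR and 218, 253 and 303 CPM with shMITF in Hermes 3A and at 76 and 89 CPM with shSCR2 and 101 and 123 CPM with shMITF in 501Mel, fell by 1.02 in Hermes 3A, and differed by 1.46 (SE 0.23, adjusted p = 0.00593). USP18, the protease that removes ISG15, OAS3 and RIGI, a sensor of viral RNA, fell in Hermes 3A by 1.83, 2.27 and 1.51, with differences of 2.21, 1.8 and 1.85. The other called differences were of IFIT2 (2.15), IFI44 (1.89), IFIH1 (1.45) and HERC6 (1.37). MX1, an antiviral GTPase, and IRF7, a factor that amplifies the response, fell by 2.23 and 1.79 in Hermes 3A, with differences that missed the threshold (2.15, adjusted p = 0.0709, and 2.46, adjusted p = 0.0755). ISG20, an exonuclease, went the other way and fell in 501Mel by 2.02.

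The interferon result kept its direction and part of its calls under other settings. DESeq2 called 15 of the 35 differences and limma-voom with sample weights 8, all positive. With the pooled 501Mel controls the median difference was 0.96 and 3 were called, and with shSCR1 it was 0.96 with 9 called positive and 2 negative, and 8 of the genes then fell in 501Mel as well. Of the 9 differences called against shSCR2, those of IFI44, RIGI, OAS3, USP18 and HERC6 were also called against shSCR1, and those of OAS3, USP18 and HERC6 with pooled controls. OAS1 had 1.22 (adjusted p = 0.0856) against shSCR1 and 1.73 (adjusted p = 0.369) with pooled controls, and IFIT2 and IFIH1 had 0.96 and 0.71 against shSCR1. STAT2 was called with any 1 sample left out but had a difference of -0.04 against shSCR1. OAS1 was lost without 501_shMITF replicate 2 or either 501_shSCR2 replicate (2.80 to 3.85), and IFIT2, IFI44, IFIH1, RIGI, OAS3, USP18 and HERC6 were each lost without 501_shMITF replicate 2, either 501_shSCR2 replicate or any one shSCR replicate, with positive differences throughout (lowest 1.11, for OAS3). Further losses came without H3A_shMITF replicate 1 (IFIT2, IFI44 and OAS3), H3A_shMITF replicate 2 (OAS3) or 501_shMITF replicate 1 (IFI44 and HERC6). The interferon response core stood in 8 of 13 promoters (61.5%) of the list members called down in Hermes 3A and in 8 of 15 (53.3%) of the other members, and in 6.82% of 396 promoters of all genes called down in Hermes 3A only.

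Cytokines and secreted factors showed both shared and line-restricted responses. Of 28 inflammatory cytokines and chemokines, 14 passed the filter, of which 5 rose and 1 fell in 501Mel, and 3 rose and 2 fell in Hermes 3A. IL6, IL11 and IL24 rose in both lines, and IL33, an alarmin of the IL1 family, fell in both, by 1.7 and 2.61. IL6, the interleukin of the senescence-associated secretory phenotype, stood at 0.305 and 0.229 CPM with shSCR2 and 0.863 and 0.79 CPM with shMITF in 501Mel and at 1.86, 1.5 and 1.58 CPM with shSCR and 7.72, 4.58 and 12 CPM with shMITF in Hermes 3A. IL24, a cytokine of the IL10 family first cloned from melanoma cells, stood at 0.672 and 0.673 CPM with shSCR2 and 4.66 and 5.09 CPM with shMITF in 501Mel and at 57.9, 54.5 and 58.8 CPM with shSCR and 179.9, 93.6 and 196 CPM with shMITF in Hermes 3A, with effects of 2.85 and 1.45. CXCL8, or interleukin 8, stood at 0.55 and 0.914 CPM with shSCR2 and 1.5 and 3.49 CPM with shMITF in 501Mel and at 43.7, 44.5 and 45.6 CPM with shSCR and 33.3, 11.4 and 16.3 CPM with shMITF in Hermes 3A, with effects of 1.71 and -1.13, neither called, and a called difference of 2.84 (SE 0.66, adjusted p = 0.0481). CXCL1 fell by 1.37 in Hermes 3A, and CCL2, a monocyte chemoattractant, rose by 4.3 in 501Mel (difference 3.14, adjusted p = 0.113). LIF, a cytokine of the IL6 family, rose by 2.56 in 501Mel, with a difference of 3.28 (adjusted p = 0.0158).

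Several of these calls rested on shSCR2. Against shSCR1 the effects there were -2.41 for IL11, -1.36 for IL24 and -1.75 for CXCL8, the median over the list was -1.02 in place of 0.63, and the differences of CXCL8 and LIF were -0.62 and 0.99. Without either shSCR2 replicate both calls were also lost, as they were without H3A_shSCR replicate 2, and that of CXCL8 without 501_shMITF replicate 2, H3A_shMITF replicate 3 or either other shSCR replicate too (2.10 to 3.38 for CXCL8 and 2.28 to 3.88 for LIF).

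Of 29 growth factors tested, 12 rose and none fell in Hermes 3A, and 5 rose and 2 fell in 501Mel. Over all genes, 3.35% rose and 4.16% fell in Hermes 3A, and 3.75% rose and 2.68% fell in 501Mel. PDGFA and VEGFC, ligands for fibroblasts and for lymphatic vessels, rose in both lines. PDGFA stood at 0.214 and 0.19 CPM with shSCR2 and 1.66 and 1.18 CPM with shMITF in 501Mel and at 1.45, 1.36 and 1.48 CPM with shSCR and 8.2, 4 and 3.6 CPM with shMITF in Hermes 3A, and VEGFC rose by 1.74 and 1.37. ANGPTL4, an inhibitor of lipoprotein lipase, stood at 0.748, 0.5 and 0.728 CPM with shSCR and 48.9, 11.4 and 28.2 CPM with shMITF in Hermes 3A and at 0.0305 and 0.0381 CPM with shSCR2 and 0 and 0.0368 CPM with shMITF in 501Mel, close to the limit of detection, and its difference was not called (adjusted p = 0.136). BDNF, a neurotrophin, rose from 8.93, 9.45 and 9.63 CPM to 155, 40.5 and 46.9 CPM in Hermes 3A, replicate 1 being highest. TGFB2, a TGF-beta ligand, stood at 4.37 and 4.42 CPM with shSCR2 and 0.123 and 0.165 CPM with shMITF in 501Mel and at 0.513, 0.445 and 0.449 CPM with shSCR and 1.05, 0.361 and 0.657 CPM with shMITF in Hermes 3A. It fell by 4.89 in 501Mel, and its difference of -5.45 (SE 0.64, adjusted p = 0.00114) was kept with every control and with any 1 sample left out. TGFB2 and FGF7 were the 2 called differences of the list.

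Targets of SRF and YAP, the factors that read actin tension, had positive medians in both lines. Of 28 tested, 7 rose in 501Mel and 6 in Hermes 3A, none fell, and the medians were 0.76 and 0.38. TGFBI, a matrix protein induced by TGF-beta, stood at 0.519 and 0.305 CPM with shSCR2 and 3.06 and 3.84 CPM with shMITF in 501Mel and at 1.32, 0.723 and 0.728 CPM with shSCR and 9.52, 5.84 and 8.3 CPM with shMITF in Hermes 3A, and rose by 3.12 and 3.08. ANKRD1, a YAP target, rose in 501Mel from 0.153 and 0.317 to 6.9 and 10.1 CPM and stood at 0.0214, 0.111 and 0 CPM with shSCR and 0.0268, 0.0602 and 0 CPM with shMITF in Hermes 3A (difference 5.42, adjusted p = 0.0612, not called). THBS1, thrombospondin-1, stood at 9.33, 11.3 and 10.2 CPM with shSCR and 576, 149 and 84.7 CPM with shMITF in Hermes 3A, with a wide spread among the shMITF replicates, and at 0.0305 and 0.14 CPM with shSCR2 and 0.123 and 0.184 CPM with shMITF in 501Mel. No difference of this list was called by edgeR's quasi-likelihood test, 7 had an unadjusted p under 0.05, and DESeq2 called 3 and limma-voom with sample weights 1. The 501Mel median was 0.25 with pooled controls and 0.26 against shSCR1, where 6 genes rose and 4 fell in 501Mel and 3 differences were called positive and 6 negative.

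Of 25 receptors and factors of the invasive melanoma state tested, 7 rose and 1 fell in 501Mel, and 8 rose and 2 fell in Hermes 3A. AXL, the receptor tyrosine kinase of that state, stood at 0.153 and 0.355 CPM with shSCR2 and 1.97 and 1.62 CPM with shMITF in 501Mel and at 0.385, 0.222 and 0.342 CPM with shSCR and 1.58, 0.933 and 1.04 CPM with shMITF in Hermes 3A. CDH2, or N-cadherin, rose by 2.91 and 1.43, and NFATC2, a calcium-regulated factor, by 2.68 and 3.5. NGFR, the neural crest receptor p75, rose in Hermes 3A, where it stood at 4.38, 3.98 and 4.32 CPM with shSCR and 29.4, 66.2 and 105 CPM with shMITF, and was under 1 CPM in 501Mel. SNAI2, an EMT factor expressed in melanocytes, fell in 501Mel by 1.41 and had 0.72 in Hermes 3A, with a difference of -2.12 (adjusted p = 0.0286) that was lost against shSCR1 (-0.41), and without 501_shMITF replicate 2, 501_shSCR2 replicate 2 or any one shSCR replicate (-2.72 to -1.59). FZD7, a Wnt receptor, rose in 501Mel from 72.4 and 96.2 to 140.2 and 209 CPM. In Hermes 3A it stood at 33.4, 30.7 and 27 CPM with shSCR and 19.6, 19.2 and 21.7 CPM with shMITF, and its difference of 1.64 (adjusted p = 0.0065) was called with each control and with any 1 sample left out.

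Collagens and matrix proteases had close medians in the lines (0.31 in 501Mel and 0.33 in Hermes 3A), but no gene of 28 was alike. The list was low in 501Mel, with a median log2 CPM of 1.72 and 1.33 in the shSCR2 samples. Likeness is harder to show at low counts, so this does not show that the effects differ. The 501Mel median rested on shSCR2, since it was -0.32 with pooled controls and -0.49 against shSCR1, where 7 genes fell in 501Mel and 1 difference was called positive and 9 negative. COL13A1, a transmembrane collagen, rose in both. COL12A1, described above, and MMP2, a gelatinase, had negative differences, MMP2 of -1.51 (adjusted p = 0.0303), and PLAT, the tissue plasminogen activator, a positive one of 1.49 (adjusted p = 0.0278), which was -0.05 against shSCR1. The call of MMP2 was lost without any one sample other than a H3A_shMITF replicate (-1.69 to -1.17), and that of PLAT without 501_shMITF replicate 2, 501_shSCR2 replicate 2 or any one shSCR replicate (1.19 to 1.87). COL1A2, a fibrillar collagen, rose in Hermes 3A from 60.6, 68.2 and 61.1 CPM to 95, 104 and 203 CPM. It carries most of the summed level of 8 fibroblast markers, which was 68.8 to 77.7 CPM with shSCR and 109 to 208 CPM with shMITF in Hermes 3A and 7.11 to 12.9 CPM over both groups of 501Mel. Of these markers COL1A2, LUM and TWIST2 were above 1 CPM in Hermes 3A with shSCR and PDGFRA as well with shMITF, while DPT was at 0 in both groups. Their part in the result was not tested.

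Of 24 cholesterol biosynthesis genes, 3 had positive called differences, among them the sterol enzymes TM7SF2 (2.16) and MSMO1 (1.24). TM7SF2 stood at 6.17 and 5.09 CPM with shSCR2 and 10.1 and 11.8 CPM with shMITF in 501Mel and at 17.1, 20.2 and 16.1 CPM with shSCR and 7.45, 9.42 and 6.43 CPM with shMITF in Hermes 3A, and its difference was -0.37 against shSCR1. Lysosomal genes had 5 positive called differences of 37, beside 2.00% of all genes. CTSB, the protease cathepsin B, stood at 1065 and 996 CPM with shSCR2 and 4061 and 6364 CPM with shMITF in 501Mel and at 2156, 2173 and 2093 CPM with shSCR and 1962, 1277 and 2042 CPM with shMITF in Hermes 3A, and rose in 501Mel by 2.34 (difference 2.62, adjusted p = 0.00178). CTSK, cathepsin K, instead fell in Hermes 3A, where it stood at 1479, 1459 and 1512 CPM with shSCR and 492, 382 and 230.1 CPM with shMITF, against 1.47 and 1.26 CPM with shSCR2 and 1.25 and 3.11 CPM with shMITF in 501Mel (difference 2.72, adjusted p = 0.0168). CTSZ and ATP6V0A1, a cathepsin and a proton pump subunit, differed by 1.57 and 1.2. Against shSCR1 the median difference of the lysosomal list went from 0.32 to -0.15, the 501Mel median from -0.16 to -0.74, and CTSB, CTSK and ATP6V0A1 lost their calls.

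Of 25 glycolysis and hypoxia genes tested, 6 fell and 1 rose in 501Mel, and 2 fell and 1 rose in Hermes 3A (medians -0.62 and -0.08). Over all genes, 2.68% fell and 3.75% rose in 501Mel, and 4.16% fell and 3.35% rose in Hermes 3A. PGAM1, a glycolytic mutase, stood at 293 and 267 CPM with shSCR2 and 122 and 108 CPM with shMITF in 501Mel and at 255, 258 and 243 CPM with shSCR and 256, 183 and 201 CPM with shMITF in Hermes 3A (difference -1.05, adjusted p = 0.0239), and BNIP3L, a mitophagy receptor, differed by -1.04 (adjusted p = 0.0177). ENO2, the neuronal enolase, fell in both lines, by 1.48 and 1.8. Against this trend SLC2A1, the glucose transporter GLUT1, rose in 501Mel, from 286 and 202 to 1039 and 1487 CPM, and stood at 49.9, 50.4 and 42 CPM with shSCR and 85.1, 44.7 and 59.4 CPM with shMITF in Hermes 3A (difference 1.96, adjusted p = 0.0125). Of 21 MAPK feedback genes, ETV5, an ETS factor induced by ERK, and EPHA2, an ephrin receptor, had positive differences (1.49 and 1.8). Of 27 genes of ATF4 and amino acid stress, SESN2, VLDLR (1.08) and ALDH1L2 (1.93) did.

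Most of these metabolic and signalling calls depended on single samples or on the control. TM7SF2, MSMO1, CTSB, CTSK, ATP6V0A1, ETV5, VLDLR, ALDH1L2, PGAM1 and SLC2A1 lost theirs both against shSCR1 and with pooled controls. CTSZ lost its call with pooled controls only. TM7SF2, CTSB, ATP6V0A1 and ETV5 kept theirs with any 1 sample left out. MSMO1, CTSK, CTSZ, EPHA2, VLDLR, ALDH1L2, PGAM1, SLC2A1 and BNIP3L lost theirs without 501_shMITF replicate 2, and each of these 9 also without at least 1 replicate of shSCR2. Over the left-out samples the difference ran from 1.92 to 3.22 for CTSK, 1.68 to 2.24 for SLC2A1 and 1.61 to 2.09 for EPHA2, and came under 1 in size at its nearest for VLDLR (0.82), PGAM1 (-0.90) and BNIP3L (-0.83).

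**Figure D5:**
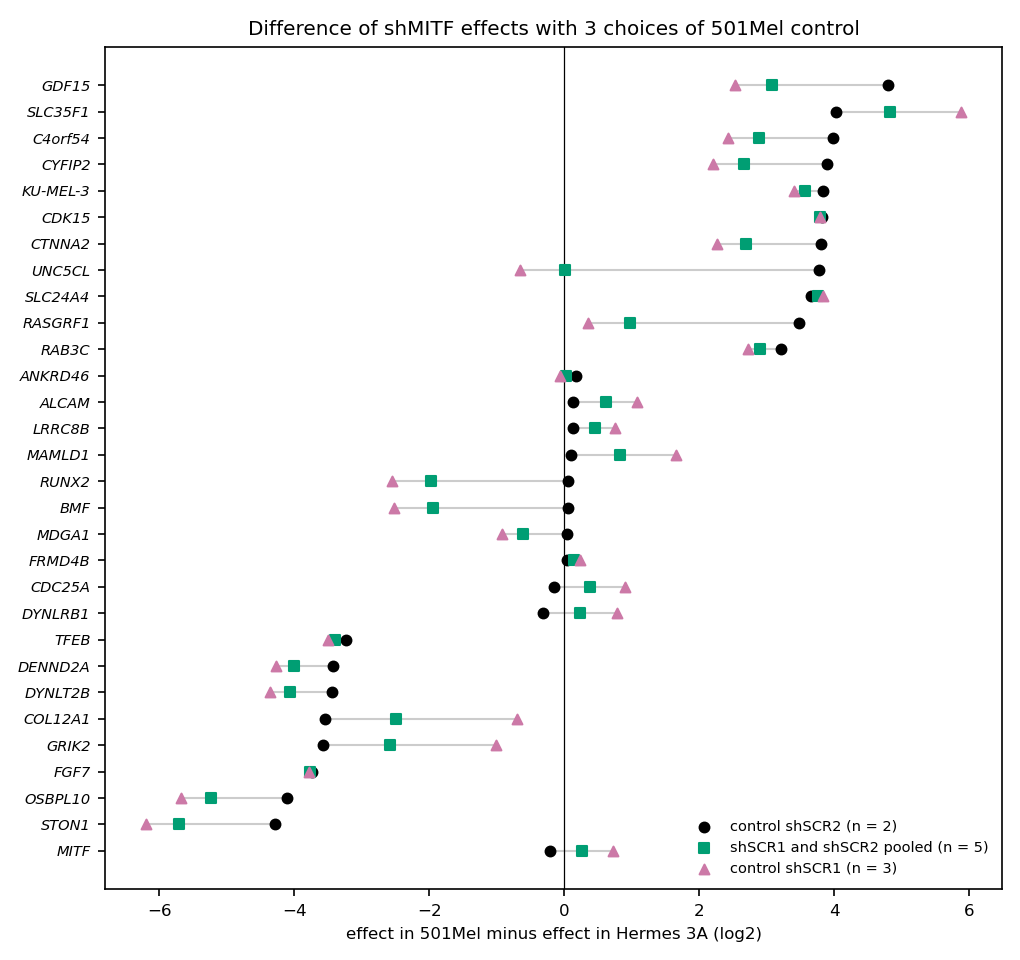
Difference of the shMITF effects (501Mel minus Hermes 3A, log2) for MITF and the genes named by size, opposite direction or likeness, with shSCR2 (n = 2), shSCR1 (n = 3) or both pooled (n = 5) as the 501Mel control. SLC35F1, KU-MEL-3, CDK15, SLC24A4, STON1, OSBPL10, FGF7 and TFEB keep their direction and call with each control, while UNC5CL, RASGRF1, GRIK2 and COL12A1 come to -0.66, 0.36, -1.0 and -0.7 with shSCR1.

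The choice of 501Mel control moved many of these calls. Of the 385 genes with a higher effect in 501Mel, 337 kept their direction and 204 their call with shSCR1, and 359 and 131 did so with both controls pooled. Of the 124 genes with a lower effect, 108 of 123 tested kept their direction and 62 their call with shSCR1, and all 124 kept their direction and 44 their call with pooled controls. With shSCR1, 1361 genes were called higher and 1872 lower, and the effect on MITF itself in 501Mel was the -0.15 given above. Whether shSCR1 and shSCR2 are different vectors is not given in the sources used here.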

How the data were processed

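RNA-seq of total RNA was depleted of ribosomal RNA, and a duplex-specific nuclease step lowered the most abundant cDNAs, which may compress the levels of the highest genes. The deposited values were raw counts of reads, listed by Ensembl gene with 1 file per sample. Their processing notes name CASAVA 1.8, TopHat 1.4.1, Bowtie 0.12.7 and the build hg19, while the counting program and its use of strand are not given in the sources used here. Gene names and positions were taken from GENCODE 29 on GRCh38, only to place genes.

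Genes listed for all 10 samples were filtered by group with filterByExpr, scaled by TMM and fitted in 1 model of 4 groups with edgeR 4.0.16 (robust quasi-likelihood test, Benjamini-Hochberg adjustment over 19284 genes). The difference is the interaction contrast. A call needed an adjusted p under 0.05 and an absolute log2 value over 1. CPM values use the TMM library sizes. DESeq2 1.42.0 and limma 3.58.1 (R 4.3.3), pooled or other controls, other filters and left-out samples made up 23 alternatives. Tables were made in Python 3.11.15 with numpy 2.4.6, pandas 2.3.3 and scipy 1.17.1, and figures with matplotlib 3.10.9. The fit was also run on simulated counts with known changes. These had 1 spread per gene for all 4 groups and so could not test the unequal spread of the real ones.

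Genes named by size were, with at least 10 counts on average in each group and 100 in the highest, the 8 with the largest difference in each direction, whose samples did not overlap in at least 1 line, up to 5 per direction called oppositely in the lines, and 5 per direction called in both and alike. From the 19 gene lists, members with a called difference were named, then examples, except for a few members that are not reported here. The compared groups, the lists and the rules were chosen with earlier results of these data known. Samples with the same replicate number showed little shared deviation (correlation of deviations 0.083 in 501Mel and -0.067, 0.034 and -0.10 in Hermes 3A), and the numbers were not treated as pairs. With so few samples per group the deviations constrain each other, so these values cannot exclude pairing.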

Additional observations from a re-analysis of the deposited data

Results flagged for a closer look

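The interaction test called a difference between the effects of shMITF in the lines for the genes below, each given with its log2 difference, 501Mel minus Hermes 3A. Among genes named by size or opposite direction, positive differences were those of GDF15 (4.79), SLC35F1 (4.02), C4orf54 (3.98), CYFIP2 (3.89), KU-MEL-3 (3.83), CDK15 (3.82), CTNNA2 (3.81), UNC5CL (3.78), SLC24A4 (3.66), RASGRF1 (3.48) and RAB3C (3.20), and negative ones those of STON1 (-4.29), OSBPL10 (-4.10), FGF7 (-3.73), GRIK2 (-3.57), COL12A1 (-3.55), DYNLT2B (-3.44) and DENND2A (-3.42). Pigment cell genes were TFEB (-3.24), LEF1 (1.68), SOX6 (-2.09), SLC45A2 (3.51), SLC24A5 (1.03), RAB38 (1.85), BLOC1S1 (-1.61) and PPARGC1A (-1.96). Cell-cycle and stress genes were GINS3 (-1.29), CDK6 (2.39), CDKN2B (2.79), SESN2 (1.35), GADD45A (1.55), VLDLR (1.08) and ALDH1L2 (1.93). Secreted, receptor and matrix genes were CXCL8 (2.84), LIF (3.28), TGFB2 (-5.45), FZD7 (1.64), MMP2 (-1.51), PLAT (1.49) and EPHA2 (1.8). The transcription factors SNAI2 (-2.12) and ETV5 (1.49) were called as well. Interferon-stimulated genes were IFIT2 (2.15), IFI44 (1.89), IFIH1 (1.45), RIGI (1.85), OAS1 (3.31), OAS3 (1.8), STAT2 (1.46), USP18 (2.21) and HERC6 (1.37). Metabolic and lysosomal genes were TM7SF2 (2.16), MSMO1 (1.24), CTSB (2.62), CTSK (2.72), CTSZ (1.57), ATP6V0A1 (1.20), PGAM1 (-1.05), SLC2A1 (1.96) and BNIP3L (-1.04). No group of the comparison held the 4 samples that a test for a single outlying sample needs.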

How the results depend on the processing

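The direction of the MITF difference reversed with the control, from -0.22 to 0.27 with pooled 501Mel controls (adjusted p = 0.853) and 0.72 with shSCR1 (adjusted p = 0.0343, edgeR). With shSCR1 the differences of UNC5CL (-0.66), GINS3 (0.16), CXCL8 (-0.62), PLAT (-0.046), STAT2 (-0.043) and TM7SF2 (-0.37) also reversed. The cause was not tested.

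The 385 genes with a higher effect in 501Mel became 621 with DESeq2, 908 with all 19 samples in one fit, 46 with glmTreat, which tests against the fold threshold itself, 137 with pooled controls and 1361 with shSCR1. The 124 with a lower effect became 287, 395, 14, 54 and 1872 under the same settings, 188 with limma-voom and 215 with no filter. The 1241 genes called in 501Mel became 2040 with all samples, 145 with glmTreat, 4987 with shSCR1 and 2413 with no fold threshold. The 1449 called in Hermes 3A became 2194, 235 and 3507 with all samples, glmTreat and no fold threshold, 880 where each sample had to reach 10 counts and 882 with pooled controls. The 320 called in both became 528, 26, 641 and 935 with all samples, glmTreat, shSCR1 and no fold threshold. Library sizes in place of TMM moved the median of all genes from 0.0 to 0.12 in 501Mel and from 0.037 to 0.15 in Hermes 3A, and the split from 724 up and 517 down to 915 and 351 in 501Mel, and from 646 and 803 to 852 and 626 in Hermes 3A.

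With 1 sample left out, where a 501Mel group keeps 1 sample that is assumed to vary like the others, the counts ran from 129 to 561 (higher), 23 to 242 (lower), 416 to 1630 (501Mel), 959 to 1785 (Hermes 3A), 129 to 424 (both) and 4985 to 7583 (alike), and the MITF difference from -0.36 to -0.018. The low counts for higher, lower, 501Mel and both came without 501_shMITF replicate 2. A replicate block gave 423 higher, 154 lower, 1246 in 501Mel, 1383 in Hermes 3A, 326 in both, 6445 alike and a MITF difference of -0.19. Whether samples of the same number belong together is not given in the sources used here. Without H3A_shSCR replicate 1, 2 or 3, respectively 190, 157 and 182 of the 385 higher differences kept their call. All of those tested kept their direction. The part of the spread shared between groups in these losses was not tested. With 2 samples per 501Mel group, a difference that was not called is not shown to be absent.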
